A study of Mus musculus with 21 samples.

Results

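*Bcl11a* and *Bcl11b*, the pair of paralogous zinc finger genes that mark the early branches of the lymphoid tree, were followed in lymphoid progenitors (LPs) from which 1 of 4 regulators had been targeted. The members were the rows of the QuantSeq table with these symbols, 2 of 55421 genes, read in all 15 libraries of 5 conditions with the ChIP-seq peaks within 1 Mb of each gene. All libraries came from 1 C57BL6/J mouse LP line that lacks functional Ebf1, the factor that starts the B-lineage program, cultured on OP9 stromal cells with SCF, IL-7 and Flt3L and without Notch stimulation. The line carried Cas9-GFP, and retroviral sgRNAs were marked by hNGFR. Guides to luciferase served as sgControl, and the other conditions (sgLmo2, sgZbtb1, sgCbfa2t2 and sgCbfa2t3), each from 2 pooled sgRNAs, were aimed at the adaptor Lmo2, the zinc finger protein Zbtb1, and the ETO-family corepressors Cbfa2t2 and Cbfa2t3. GFP+hNGFR+ cells were sorted 5 days after sgRNA introduction, with 3 libraries for each condition. The cells of a library are therefore an edited pool of a single cultured line and not cells of separate mice, and the share of edited alleles was not measured in these data. Zbtb1 and Cbfa2t3 ChIP-seq was done on the same *Ebf1*-deficient LPs without sgRNA, in 2 replicates each, and each factor has 1 list of peaks found in both.

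Bcl11a and Bcl11b are DNA-binding repressors that work with the NuRD deacetylase complex and also occur in BAF chromatin remodelers. Bcl11a is needed for lymphoid progenitors and for B cells, and in red cells it silences the embryonic and fetal globins. Bcl11b is switched on as progenitors commit to the T lineage under Notch, Tcf7, Gata3 and Runx1, and in T cells it restrains genes of natural killer and innate lymphoid cells. *Bcl11b* is flanked on its 3′ side by a gene desert that holds enhancers used in T cells, and the second intron of *Bcl11a* holds an enhancer used in erythroid cells. Whether the peaks described here are those elements was not determined.

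*Bcl11a* (ENSMUSG00000000861) is on the plus strand at chr11:24078056-24174123, and *Bcl11b* (ENSMUSG00000048251) on the minus strand at chr12:107910403-108003602 (mm10). The sequences shown are from 6 Cbfa2t3 peaks that stood close to *Bcl11a* or inside the desert beyond *Bcl11b*, with no other expressed gene between them and the member. These were chosen because no peak of either list lay at either promoter. Each line gives 200 bases at the centre of the peak, read 5′ to 3′ on the plus strand of GRCm38, with all matches to the searched letters in capitals. On both strands, the search used TGTGGT for the binding motif of Runx factors. It used TGGTGGT for the core of the motif named after Zbtb7c. Letters of E-boxes, the sites of E proteins, were CAGCTG for the first form and, as another form of the same kind of site, CAGATG. Factors of the GATA family were represented by the letters AGATAA. ETS factors were represented by the letters GGAAGT. The Notch partner RBPJ was represented by the letters TGGGAA, and neighbouring matches can overlap.
Bcl11a intron 2, chr11:24128137-24128336: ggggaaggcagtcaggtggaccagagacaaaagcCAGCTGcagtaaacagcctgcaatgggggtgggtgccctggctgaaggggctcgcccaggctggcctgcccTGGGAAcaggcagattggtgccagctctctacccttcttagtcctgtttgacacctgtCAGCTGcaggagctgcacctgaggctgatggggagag
Bcl11a downstream site 1, chr11:24185078-24185277: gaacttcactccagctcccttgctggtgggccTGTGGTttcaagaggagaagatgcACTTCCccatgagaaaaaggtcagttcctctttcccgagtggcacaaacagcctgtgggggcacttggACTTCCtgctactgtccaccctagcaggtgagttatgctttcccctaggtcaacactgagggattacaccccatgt
Bcl11a downstream site 2, chr11:24200308-24200507: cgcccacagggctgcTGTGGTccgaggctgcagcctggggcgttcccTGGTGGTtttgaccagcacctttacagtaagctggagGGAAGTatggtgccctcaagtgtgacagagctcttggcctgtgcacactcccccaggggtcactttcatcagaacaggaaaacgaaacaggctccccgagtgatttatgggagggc
Bcl11a downstream site 3, chr11:24243012-24243211: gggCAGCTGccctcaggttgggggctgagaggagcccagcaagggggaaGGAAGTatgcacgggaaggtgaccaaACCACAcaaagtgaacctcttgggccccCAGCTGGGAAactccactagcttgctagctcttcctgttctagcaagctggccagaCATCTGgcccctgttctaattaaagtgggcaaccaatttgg
Bcl11b desert site shared with Zbtb1, chr12:107148602-107148801: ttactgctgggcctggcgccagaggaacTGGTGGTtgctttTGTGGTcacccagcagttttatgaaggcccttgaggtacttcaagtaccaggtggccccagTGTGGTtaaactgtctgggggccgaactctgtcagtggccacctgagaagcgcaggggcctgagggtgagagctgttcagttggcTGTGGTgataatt
Bcl11b desert site 2, chr12:107160179-107160378: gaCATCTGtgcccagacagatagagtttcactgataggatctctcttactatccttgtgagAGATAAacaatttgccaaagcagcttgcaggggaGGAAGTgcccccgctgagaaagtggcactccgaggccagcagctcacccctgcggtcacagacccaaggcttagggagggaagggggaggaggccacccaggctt

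The shared desert site held TGTGGT 3 times and TGGTGGT once, and none of the E-box, GATA or ETS letters. TGTGGT was present in 43.7% of all Cbfa2t3 windows and in 41.3% of all Zbtb1 windows, and TGGTGGT in 6.94% and 15.8%. The intron 2 site of *Bcl11a* had CAGCTG 2 times and TGGGAA once and no TGTGGT, whereas TGTGGT was found in all 3 downstream sites. GGAAGT was found in the same 3 downstream sites and in desert site 2, beside 32.7% of all Cbfa2t3 windows. CAGCTG occurred in 2 of the 4 *Bcl11a* sites (47.4% of all Cbfa2t3 windows), and AGATAA only in desert site 2 among the 6 (6.44%). These matches describe letters and not bound sites.

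QuantSeq counts 1 tag at the 3′ end of a transcript, so the deposited values, named TPM by the authors, are reads scaled to a total of 1000000 per library and do not depend on gene length. The libraries held 1705416 to 2095447 reads, and 3 reads, the floor used here, were worth 1.43 to 1.76 TPM. The 3 libraries of a condition differed from each other by more than counting error across genes (chi-square of at least 2.22 per gene), and none was a copy of another. No targeted gene had mRNA that fell past the threshold. *Zbtb1* rose from 61.7 ± 5.51 to 106 ± 9.91 TPM (SD, n = 3 each; limma adjusted p = 0.00102) in the libraries labelled sgZbtb1, and *Cbfa2t3* rose from 190 ± 18.7 to 350 ± 12.9 TPM (limma adjusted p = 1.67e-07) in those labelled sgCbfa2t3. *Cbfa2t2* and *Lmo2* did not pass with their own sgRNAs. The 3′ tags cannot show small deletions at a cut site, so these values check neither editing nor protein. At the protein level, the paper reports immunoblots of sgRNA-transduced LPs with loss of Lmo2, Zbtb1 and Cbfa2t3 under their own sgRNAs. Reads of *Ebf1* itself (209 to 366 TPM over sgControl and sgZbtb1) were present in these *Ebf1*-deficient cells. The lymphoid progenitor markers *Ptprc*, *Il7r*, *Flt3*, *Kit*, *Rag1*, *Dntt* and *Cd34* summed to 1117 to 1333 TPM, while the 7 OP9 stromal markers summed to at most 6.84 TPM with *Col3a1*, *Lum* and *Dcn* at 0 in every library. Tags of *Bcl11a* and *Bcl11b* could be told apart, since no 75-base stretch was shared by their 6 and 3 annotated transcripts. The antisense genes Gm12064 and 4930538E20Rik within *Bcl11a* had no reads in any library.

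*Bcl11a* was the more abundant of the pair in 13 of the 15 libraries, and it was lower than in sgControl with all 4 gene-targeting sgRNAs. In sgControl it was at 38.9, 57.3 and 38.1 TPM in libraries 1, 2 and 3 (67, 99 and 65 reads). In sgLmo2 it was at 18.7, 26.9 and 17.5 TPM. In sgZbtb1 it was at 23.5, 32.5 and 19.1 TPM. All 6 of these sgRNA libraries were below the lowest control library. The sgCbfa2t2 libraries had 34.6, 34.4 and 29.0 TPM, and the sgCbfa2t3 libraries had 30.0, 28.5 and 23.3 TPM. Thus all 12 gene-targeting libraries were below the 3 control libraries, although the same 3 control libraries served each comparison, and library 2 of sgControl stood well above the other two. Over all 11554 genes tested, 4.97% had all 3 sgLmo2 libraries below all 3 control libraries, and the share was 12.8% for sgZbtb1, 6.85% for sgCbfa2t2 and 9.06% for sgCbfa2t3.

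**Figure D1:**
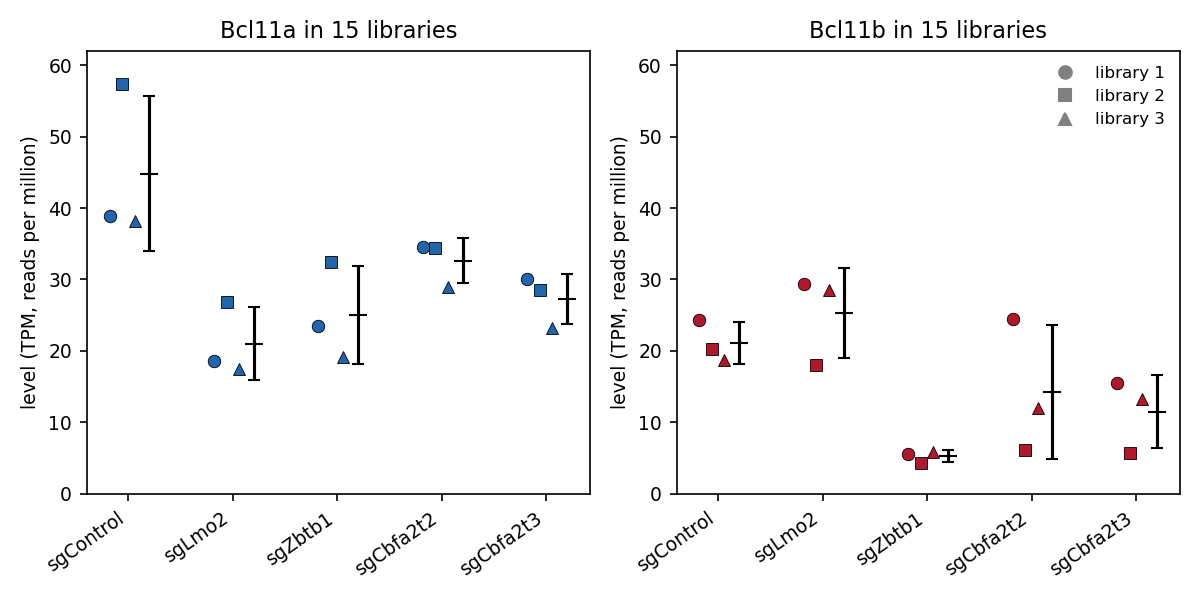
Levels of *Bcl11a* (left) and *Bcl11b* (right) in TPM in each library, with circles, squares and triangles for libraries 1, 2 and 3 and black bars for the mean ± SD of the 3 libraries of a condition. All gene-targeting libraries are below the control libraries for *Bcl11a*, and the 3 sgZbtb1 libraries are between 4.30 and 5.89 TPM for *Bcl11b*.

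*Bcl11b* followed another order. The sgControl libraries 1, 2 and 3 held 24.4, 20.3 and 18.8 TPM (42, 35 and 32 reads). In sgLmo2, the values were 29.4, 18.1 and 28.5 TPM, so 2 libraries were above the highest control library and 1 was below the lowest. In sgZbtb1, it was at 5.59, 4.30 and 5.89 TPM, from 10, 9 and 12 reads. These were far below all control and sgLmo2 libraries and above the floor. The sgCbfa2t2 libraries were widely apart, at 24.5, 6.20 and 12.1 TPM, and the sgCbfa2t3 libraries were at 15.5, 5.71 and 13.3 TPM. Library 2 of both conditions was close to the level of the sgZbtb1 libraries, whereas library 1 of sgCbfa2t2 was just above the highest control. In reads, the spread of *Bcl11b* within conditions was 4.08 times that of counting error, beside a median of 2.09 over 1174 genes of similar read number. For *Bcl11a* it was 2.44, beside 2.13 over 1323 genes.

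With sgZbtb1, both members fell. *Bcl11b* went from 21.1 ± 2.91 TPM (SD, n = 3) in sgControl to 5.26 ± 0.843 TPM, a log2 change of -1.82 with a 95% interval from -2.55 to -1.10 (limma adjusted p = 0.000453 over 11554 genes). *Bcl11a* went from 44.8 ± 10.9 to 25.0 ± 6.82 TPM, a log2 change of -0.82 with an interval from -1.29 to -0.35 (limma adjusted p = 0.0264). In this comparison 4.79% of all genes passed, so a call here is less rare than with the other sgRNAs against sgControl. Leaving out 1 library took the number of called genes from 554 to between 306 and 459. Of the 7 lymphoid progenitor markers, 1 rose and 2 fell with sgZbtb1 by limma. *Cd34* went from 258 ± 47.7 to 369 ± 8.29 TPM, *Kit* from 22.3 ± 0.727 to 10.2 ± 5.18 TPM and *Ptprc* from 476 ± 36.0 to 391 ± 25.6 TPM (SD, n = 3 each), and their part in the changes of the members was not tested. The *Bcl11b* change stayed past the threshold in each of the 16 alternative analyses, with adjusted p between 6.7e-05 and 0.0211. The *Bcl11a* change did not pass without library 2 of sgControl (log2 change -0.63, adjusted p = 0.21), without library 1 (-0.79, 0.0813) or library 3 (-0.65, 0.183) of sgZbtb1, or when all genes above 0 were tested (adjusted p = 0.0667). In bulk RNA, fewer cells that express a gene and less of its RNA per cell cannot be told apart.

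With sgLmo2, neither member passed, and their changes differed in size and sign. The 6 myeloid markers summed to 3.83 to 11.3 TPM in sgLmo2 and 15.05 to 17.0 TPM in sgControl, with *Elane* and *Csf3r* at 0 in every library, and the 5 erythroid markers to 71.2 to 113 TPM and 114 to 148 TPM. Both sums were lower in all sgLmo2 libraries than in all control libraries, as were 4.97% of all genes tested. Only 2 of the myeloid and 1 of the erythroid markers had a mean above 1 TPM, and 0 of them passed with sgLmo2. The part of these markers in the values of the members was not tested. *Bcl11a* was at 21.0 ± 5.11 TPM (SD, n = 3) against 44.8 ± 10.9 TPM, a log2 change of -1.05 with an interval from -1.53 to -0.58, which did not pass the adjustment (limma adjusted p = 0.11, unadjusted p = 3.45e-05). Only 0.0173% of all genes passed in this comparison. That share rests on 2 called genes, and leaving out 1 library gave between 1 and 4. *Bcl11b* was at 25.3 ± 6.28 against 21.1 ± 2.91 TPM, with a log2 change of 0.23 whose interval ran from -0.50 to 0.95 (limma adjusted p = 0.974). It was 0.11 without library 1, 0.13 without library 3 and 0.44 without library 2 of sgLmo2, and 0.15 without library 3 of sgControl. A drop of *Bcl11b* of the size seen with sgZbtb1 was outside that interval.

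With sgCbfa2t2 and sgCbfa2t3, both members had lower means, and neither passed. *Bcl11a* was at 32.6 ± 3.17 TPM in sgCbfa2t2 (log2 change -0.42, interval -0.90 to 0.05, limma adjusted p = 0.601) and at 27.3 ± 3.55 TPM in sgCbfa2t3 (-0.68, -1.15 to -0.20, adjusted p = 0.237; SD, n = 3 each). *Bcl11b* was at 14.3 ± 9.33 TPM in sgCbfa2t2 (log2 change -0.72, interval -1.44 to 0.01, limma adjusted p = 0.527) and at 11.5 ± 5.15 TPM in sgCbfa2t3 (-0.92, -1.64 to -0.19, adjusted p = 0.334; SD, n = 3 each). Of all genes, 0.147% passed with sgCbfa2t2 and 0.537% with sgCbfa2t3. These shares moved with single libraries, from 17 called genes to between 2 and 26 for sgCbfa2t2 and from 62 to between 26 and 59 for sgCbfa2t3. Without the respective library 2, the *Bcl11b* differences were -0.27 and -0.52, and without library 1 of sgCbfa2t2 the former was -1.18. Without library 2 of sgControl, the *Bcl11a* difference with sgCbfa2t2 was -0.24.

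**Figure D2:**
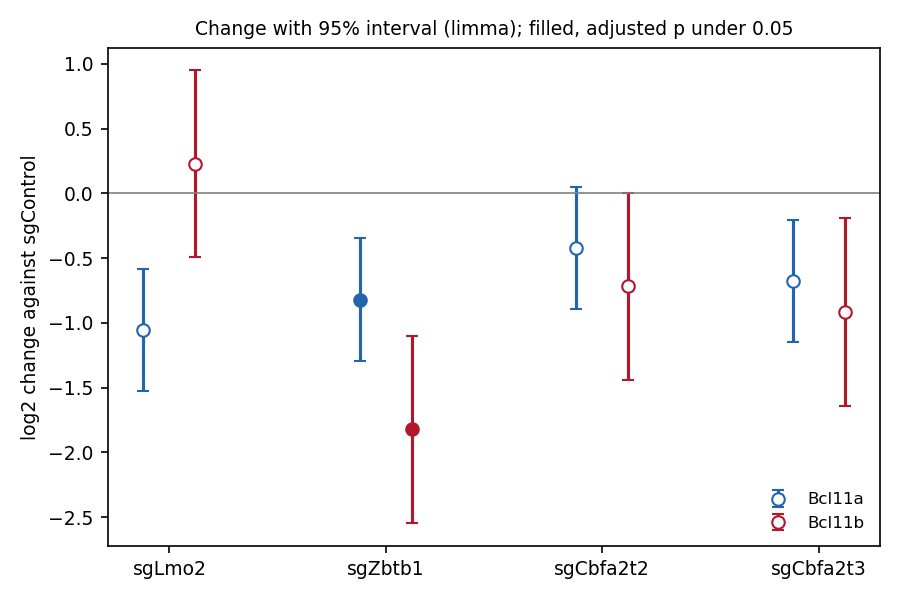
log2 change of *Bcl11a* (blue) and *Bcl11b* (red) in each gene-targeting condition against sgControl, with the 95% interval of the limma fit over 15 libraries and filled points for an adjusted p under 0.05. Both members are filled with sgZbtb1, and with sgLmo2 the 2 intervals, -1.53 to -0.58 and -0.50 to 0.95, do not meet.

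Over the 5 conditions, the levels of both genes differed by a permutation test of the F statistic with 100000 permutations of the libraries. The adjusted p, over the 2 levels and their ratio, was 0.0173 for *Bcl11a* (F = 6.13) and 0.0173 for *Bcl11b* (F = 6.45) in these permutation tests. The *Bcl11b* result did not pass without library 2 of sgZbtb1 (permutation adjusted p = 0.0607). Ordered by mean, *Bcl11a* declined from sgControl to sgCbfa2t2, sgCbfa2t3, sgZbtb1 and sgLmo2. *Bcl11b* declined from sgLmo2 to sgControl, sgCbfa2t2, sgCbfa2t3 and sgZbtb1. No pair of neighbours in either order differed past the threshold of the limma fit. Thus sgLmo2 was the lowest condition for one gene and the highest for the other.

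Among the 6 comparisons between gene-targeting sgRNAs, whose differences do not contain the control libraries though these enter the estimate of the spread, 1 passed for *Bcl11b* and 0 passed for *Bcl11a*. *Bcl11b* was higher in sgLmo2 than in sgZbtb1 by 2.05 on the log2 scale (interval 1.33 to 2.77, limma adjusted p = 5.53e-05), where 5.06% of all genes passed. Its difference between sgZbtb1 and sgCbfa2t2 was -1.11 (interval -1.83 to -0.38, limma adjusted p = 0.0942), where 2.27% of all genes passed, and without library 2 of sgCbfa2t2 it passed. Between sgLmo2 and sgCbfa2t3 it was 1.14 (interval 0.42 to 1.87, limma adjusted p = 0.16, 0.736% of all genes). Between sgLmo2 and sgCbfa2t2 it was 0.94 (interval 0.22 to 1.67, adjusted p = 0.56, 0.234% of all genes), and between sgZbtb1 and sgCbfa2t3 it was -0.91 (interval -1.63 to -0.18, adjusted p = 0.305, 1.13% of all genes). The paralog targets sgCbfa2t2 and sgCbfa2t3 differed by 0.20 for *Bcl11b* (interval -0.52 to 0.92) and by 0.25 for *Bcl11a* (interval -0.22 to 0.73), where 0.0779% of all genes passed. These shares moved with single libraries. Leaving out 1 took called genes from 585 to as few as 333 for sgLmo2 against sgZbtb1, and from 262 to 131 for sgZbtb1 against sgCbfa2t2. For sgLmo2 against sgCbfa2t2 they went from 27 to as few as 9, and for sgCbfa2t2 against sgCbfa2t3 from 9 to 1. For *Bcl11a* the unadjusted limma p was under 0.05 in 1 of the 6 comparisons, sgLmo2 against sgCbfa2t2 (-0.63, interval -1.10 to -0.16, adjusted p = 0.545). Against the 9 other gene-targeting libraries together, *Bcl11b* was higher in sgLmo2 by 1.38 (interval 0.79 to 1.97, limma adjusted p = 0.00251) and lower in sgZbtb1 by -1.35 (interval -1.94 to -0.76, limma adjusted p = 0.0016). In these comparisons 1.74% and 4.34% of all genes passed.

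The balance of the pair was read in each library as the ratio of the TPM values of *Bcl11a* to *Bcl11b*, which needs no scaling between libraries. In sgControl the ratio was 1.60, 2.83 and 2.03 in libraries 1, 2 and 3. In sgLmo2 it was 0.635, 1.49 and 0.615, the only condition with libraries in which *Bcl11b* exceeded *Bcl11a*. In sgZbtb1 it was 4.20, 7.56 and 3.25. The sgLmo2 libraries were all below, and the sgZbtb1 libraries all above, every control library. In sgCbfa2t2 the ratio was 1.41, 5.54 and 2.40, and in sgCbfa2t3 it was 1.93, 5.00 and 1.75. The sgCbfa2t2 range spanned the control range, the sgCbfa2t3 range overlapped it, and library 2 of each was above every control library. As a share of the tags of the pair, *Bcl11b* made up 61.2%, 40.2% and 61.9% in sgLmo2, with 95% Wilson intervals of 50.5% to 70.8%, 30.8% to 50.4% and 51.2% to 71.6%. In sgZbtb1 the share was 19.2%, 11.7% and 23.5% (10.8% to 31.9%, 6.27% to 20.7% and 14.0% to 36.8%). In sgControl it was 38.5%, 26.1% and 33.0% (29.9% to 47.9%, 19.4% to 34.1% and 24.4% to 42.8%). These intervals cover counting error only.

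**Figure D3:**
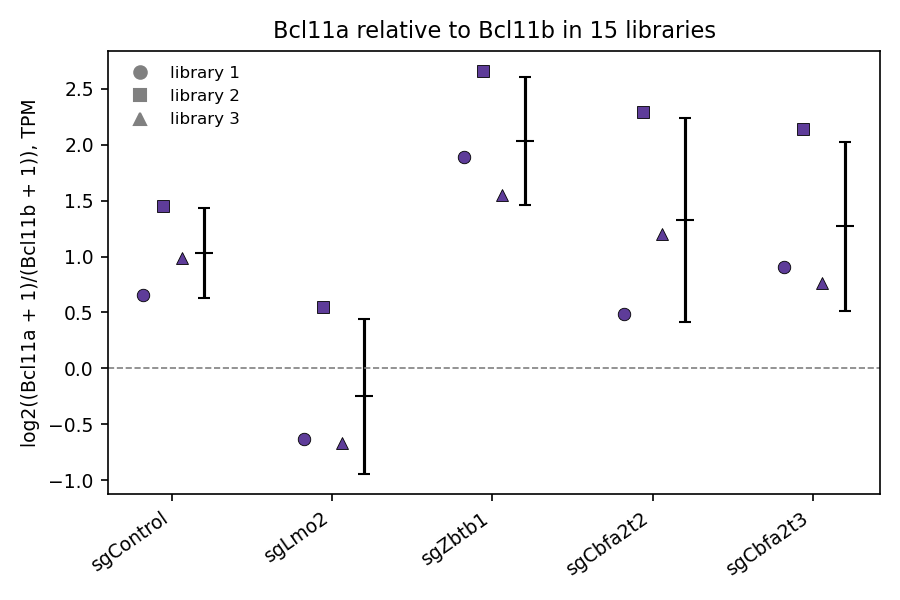
log2 ratio of (*Bcl11a* + 1) to (*Bcl11b* + 1) in TPM in each library, with symbols for libraries 1, 2 and 3, black bars for the mean ± SD of each condition and a dashed line where both genes are equal. The sgLmo2 libraries lie below and the sgZbtb1 libraries above every control library, and the square (library 2) is the highest point of each condition.

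On the log2 scale with 1 TPM added to both, the control libraries had a ratio of 1.03 ± 0.40 (SD, n = 3). It was -0.25 ± 0.69 with sgLmo2 and 2.03 ± 0.57 with sgZbtb1, and it was 1.32 ± 0.91 with sgCbfa2t2 and 1.27 ± 0.76 with sgCbfa2t3 (SD, n = 3 each). The difference from sgControl was -1.28 for sgLmo2 and 1.00 for sgZbtb1, both with an exact two-sided permutation p of 0.1, the smallest that 3 libraries against 3 can give, and 0.2 after adjustment over the 4 comparisons. For sgCbfa2t2 and sgCbfa2t3 the differences were 0.29 and 0.24 (exact permutation p = 0.7 for both, adjusted p = 0.7). Without library 2 of the respective sgRNA these 2 differences turned to -0.19 and -0.20. Against the 9 other gene-targeting libraries, where smaller p-values are possible, the ratio in sgLmo2 differed by -1.79 (exact permutation test, adjusted p = 0.0364), and that in sgZbtb1 differed by 1.25 and did not pass (adjusted p = 0.145). Over the 5 conditions the ratio differed by the permutation test of F (F = 4.39, adjusted p = 0.0259). That result did not pass without library 1 (permutation adjusted p = 0.0957) or 3 (0.0991) of sgLmo2, or without library 2 of sgZbtb1 (0.0647).

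Over the 15 libraries, no relation between the 2 members was detected. Pearson's r of log2(TPM + 1) was 0.062 (permutation p = 0.827) and Spearman's rho was 0.0464 (permutation p = 0.873), and without the 2 libraries farthest from the median of *Bcl11a* r was 0.13 (permutation p = 0.667). After the mean of each condition was subtracted, r was -0.278 (permutation p = 0.316) and rho was -0.296 (permutation p = 0.28). Adjusted over the 5 forms of this correlation that were computed, the smallest p for r was 0.827. Among 8157 genes with a mean above 10 TPM, *Bcl11b* ranked 3336 in likeness to *Bcl11a*, and *Bcl11a* ranked 3462 in likeness to *Bcl11b*.

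The genes whose pattern over the 15 libraries was most like that of *Bcl11b* were *Cd163l1*, a scavenger receptor of γδ T cells (r = 0.903), *Syne1*, a nuclear envelope protein (0.902), *Trdc*, the constant region of the T-cell receptor δ chain (0.89), *Cdh1*, which encodes E-cadherin (0.874), and *Sox6*, a SoxD transcription factor (0.847). Within conditions, after the condition means were subtracted, r was 0.53 to 0.668 for these 5. *Cd163l1* ranged from 0 to 23.2 TPM, whereas *Trdc* ranged from 255 to 434 TPM. The genes most like *Bcl11a* were *Zfp598* (r = 0.844), *Znrf2* (0.839), *Tcf4*, an E protein (0.788), *Iqgap3* (0.777) and *Parp10* (0.744). Within conditions r was 0.223 to 0.701 for these. The points share their libraries and their depth, and these values are a description.

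The gene lists were read against the share of all genes called, 0.0173% with sgLmo2, 4.79% with sgZbtb1, 0.147% with sgCbfa2t2 and 0.537% with sgCbfa2t3. At these shares, 0 called genes in a list of this size is near the background for each sgRNA, and nothing is read from such a count. The genes known to switch on *Bcl11b* did not all move with it. Of *Tcf7*, *Gata3*, *Notch1*, *Runx1* and *Cbfb*, 1 of 5 fell with sgZbtb1, beside 4.79% of all genes called, with a median log2 change of -0.30 beside -0.03 for all genes tested, and 0 of 5 passed with each other sgRNA. *Runx1*, which encodes a DNA-binding partner of Cbfb, went from 320 ± 16.0 to 180 ± 6.00 TPM (SD, n = 3 each; log2 change -0.83, limma adjusted p = 3.28e-09). *Gata3*, a zinc finger activator of the T lineage, was at 33.9 ± 3.80 TPM in control libraries against 36.0 ± 10.4 TPM with sgZbtb1. *Notch1*, the receptor that starts T-lineage entry, was at 156 ± 40.6 and 124 ± 10.3 TPM (limma adjusted p = 0.222). *Tcf7*, an HMG-box factor, had few reads, at 0.58 to 5.21 TPM (1 to 9 reads) in sgControl and 0.478 to 1.68 TPM (1 to 3 reads) in sgZbtb1, and did not pass (limma adjusted p = 0.537).

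Some T-cell identity genes fell where *Bcl11b* was lowest. With sgZbtb1, 3 of the 10 tested genes of a list of 15 fell and 0 rose, beside 4.79% of all genes called (median log2 change -0.86, beside -0.03 for all genes). They were *Cd7* (log2 change -2.69, limma adjusted p = 2.65e-05), a surface antigen, *Thy1* (-1.03, adjusted p = 6.49e-11), which encodes CD90, and *Lck* (-0.87, adjusted p = 0.000116), the kinase of the T-cell receptor. With sgCbfa2t3, *Cd7* (-1.96, adjusted p = 0.018) and *Thy1* (-0.48, adjusted p = 0.014) fell, 2 of 10 by limma, beside 0.537% of all genes called. With sgLmo2 and sgCbfa2t2 the count was 0, near the background of 0.0173% and 0.147%. *Ptcra*, which encodes the pre-T-cell receptor α chain, was at 0 in all libraries.

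None of the genes that Bcl11b restrains in T cells passed the threshold as higher where *Bcl11b* was lowest. With sgZbtb1, 5 of 7 fell and 0 rose, beside 4.79% of all genes called (median log2 change -0.61), which were *Il2rb* (-1.81, limma adjusted p = 1.16e-08), *Kit* (-1.14, 0.0205), *Nfil3* (-1.01, 0.0249), *Tyrobp* (-0.61, 0.000431) and *Id2* (-0.60, 0.00183). *Il2rb* encodes a chain of the IL-2 and IL-15 receptors, *Tyrobp* an adaptor of natural killer receptors, *Kit* the SCF receptor, and *Nfil3* and *Id2* are transcription regulators of innate lymphoid cells. The *Il2rb* level went from 50.2 ± 11.7 to 13.9 ± 5.08 TPM (SD, n = 3 each). *Zbtb16*, which encodes PLZF, was at 5.81 ± 5.06 and 7.93 ± 2.87 TPM. The count was 0 of 7 with each other sgRNA, near the background.

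Few cofactor genes of the pair passed the test. Of 12 NuRD subunits, 0 passed with any sgRNA, near the background (medians -0.06 to -0.00), and *Chd4*, its remodeling ATPase, had 1131 ± 45.0 TPM without and 1109 ± 42.1 TPM with sgZbtb1 (SD, n = 3 each). Of 12 BAF subunits, 1 rose with sgZbtb1, close to the 4.79% of all genes called there, the ATPase gene *Smarca2* (log2 change 0.60, limma adjusted p = 0.0153), and 0 passed with the others. Of 6 survival genes linked to Bcl11a, 2 passed with sgZbtb1, beside 4.79% of all genes. *Bcl2* fell (-0.77, limma adjusted p = 8.97e-10) from 778 ± 65.5 to 455 ± 27.9 TPM, and *Cdkn1a*, a target of p53, rose (0.46, adjusted p = 0.000496). *Mdm2*, which encodes the ubiquitin ligase of p53, was at 74.9 ± 1.25 and 71.2 ± 10.7 TPM, and 0 of the 6 passed with sgLmo2, where 0.0173% of all genes did. Of the 12 B-lymphoid genes, 8 were tested and 2 fell with sgZbtb1, beside 4.79% of all genes called, *Ebf1* (-0.62, limma adjusted p = 6.96e-06) and *Pax5* (-2.19, adjusted p = 0.0042), while 0 passed with the other sgRNAs, near the background. The embryonic globins *Hbb-y*, *Hbb-bh1* and *Hba-x*, which Bcl11a silences in red cells, summed to 0 to 1.17 TPM in sgControl, 0 to 0.488 TPM in sgLmo2, 1.43 to 2.79 TPM in sgZbtb1, 0.966 to 1.43 TPM in sgCbfa2t2 and 0.536 to 6.85 TPM in sgCbfa2t3. No order along the *Bcl11a* levels is read from these few reads. With sgCbfa2t3 the adult globin *Hbb-bt* rose (0.72, limma adjusted p = 0.00303), and the 5 erythroid markers summed to 184 to 277 TPM there and to 114 to 148 TPM in sgControl. In sgCbfa2t2 these erythroid markers summed to 153 to 183 TPM. The 6 myeloid markers summed to 17.7 to 21.4 TPM in sgCbfa2t3, 11.1 to 30.3 TPM in sgCbfa2t2 and 15.05 to 17.0 TPM in sgControl. The part of such cells in the values of *Bcl11a* and *Bcl11b* was not tested.

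Around *Bcl11a*, the Zbtb1 peaks lay on the 5′ side of the gene and the Cbfa2t3 peaks in it or on its 3′ side. Of 5898 Zbtb1 peaks, 5 had their centre within 1 Mb of the gene, all on the 5′ side and none closer than 173887 bp to its start. They lay in intron 2 of *Xpo1* (score 57.5), at the promoters of *Usp34* (21.4) and 0610010F05Rik (17.3), in the first exon of *Ahsa2* (33.7) and between genes near *Papolg* (18.1). Of 6077 Cbfa2t3 peaks, 4 were within 1 Mb, all of them inside or on the 3′ side of *Bcl11a*, and HOMER assigned all 4 to it. The intron 2 peak (chr11:24128048-24128426, score 38.6) was 50181 bp from the annotated start of the gene. The downstream peaks were at 107122 bp (chr11:24184989-24185367, score 29.2), 122352 bp (chr11:24200219-24200597, score 46.0, within the lincRNA gene Gm12065) and 165056 bp (chr11:24242923-24243301, score 62.6). The scores of these 4 were above those of 39.2% to 81.3% of the Cbfa2t3 list. None of the 4 overlapped a Zbtb1 peak, beside 24.4% of the Cbfa2t3 list that did.

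Around *Bcl11b*, both factors had peaks in the desert and near the next genes, and none in the gene. The desert site at chr12:107148480-107148850 (Zbtb1, score 64.5) and chr12:107148513-107148891 (Cbfa2t3, score 143) was shared, with 338 bp in common and centres 37 bp apart, and its Cbfa2t3 score was above that of 95.6% of the list. It lay 854937 bp from the *Bcl11b* start in the direction of transcription, inside the lincRNA gene Gm16084, which had no reads in sgControl, sgZbtb1, sgCbfa2t2 and sgCbfa2t3 libraries and at most 1.13 TPM in an sgLmo2 library. Desert site 2 (chr12:107160090-107160468, score 41.3) was bound by Cbfa2t3 only in these lists. HOMER assigned these desert peaks to 4933406K04Rik, and not to *Bcl11b*. On the 5′ side, 9 further Zbtb1 peaks lay at or in *Setd3*, *Ccdc85c*, *Evl*, *Degs2* and *Yy1* or, in 1 case, between genes upstream of *Yy1*, and 4 further Cbfa2t3 peaks lay in *Ccdc85c* and *Degs2* and upstream of *Yy1*. In all, 10 Zbtb1 and 7 Cbfa2t3 peaks were within 1 Mb of *Bcl11b*, and 4 of the 10 overlapped a Cbfa2t3 peak by at least 1 bp. In the whole lists, 25.2% of Zbtb1 peaks overlapped a Cbfa2t3 peak and 24.4% the reverse.

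**Figure D4:**
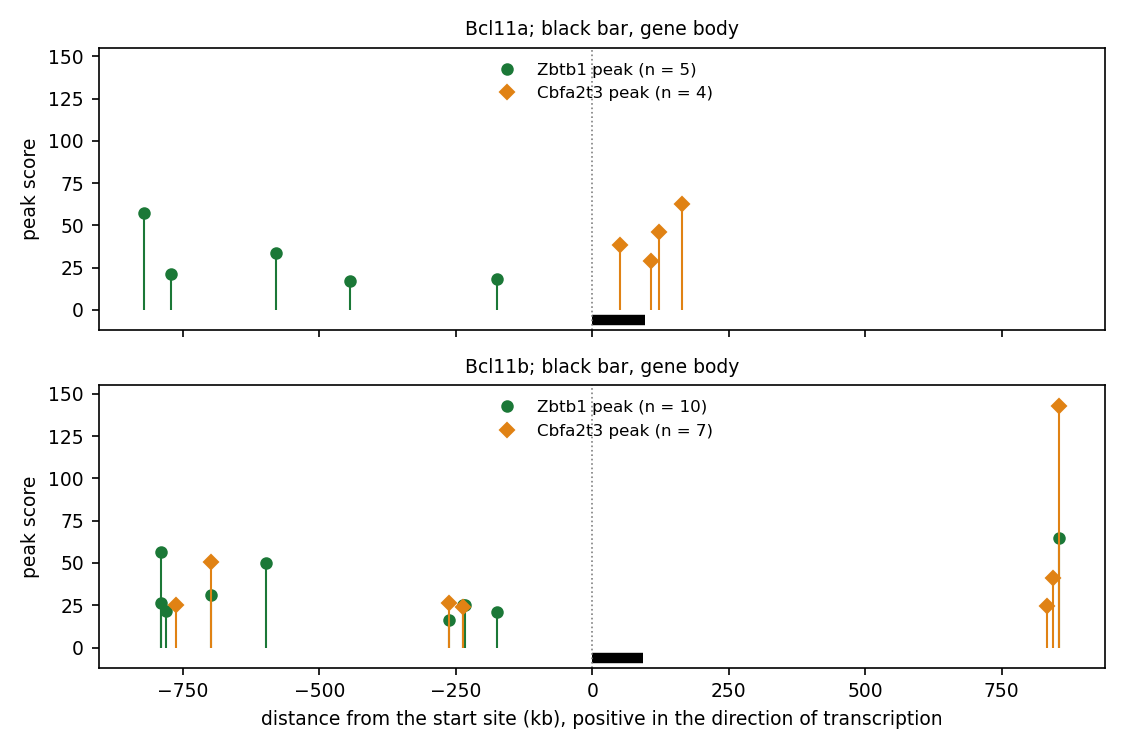
Peak score of each Zbtb1 (green circles) and Cbfa2t3 (orange diamonds) peak within 1 Mb of *Bcl11a* (top) and *Bcl11b* (bottom), against the distance of its centre from the start of the gene in kb, with the gene body as a black bar. The Cbfa2t3 peaks sit in and after *Bcl11a*, and the shared site beyond *Bcl11b* has the highest score, 143.

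The number of peaks near the members was set beside that of other genes. Over 11545 expressed genes, the median was 9 Zbtb1 and 8 Cbfa2t3 peaks within 1 Mb, against 5 and 4 for *Bcl11a* and 10 and 7 for *Bcl11b*. The nearest Zbtb1 peak was 173887 bp from the start of *Bcl11a* and 175585 bp from that of *Bcl11b*, beside a median of 40694 bp, and 80.8% and 81.0% of genes had one at least as near. For Cbfa2t3 the nearest peak was at 50181 bp for *Bcl11a* and 237780 bp for *Bcl11b*, beside a median of 72552 bp. As each factor has 1 list, no error can be given for these counts.

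The expressed neighbours within 1 Mb mostly did not pass the test. Of 8 tested neighbours of *Bcl11a* (*Xpo1*, *Usp34*, *Ahsa2*, 0610010F05Rik, *Pex13*, *Pus10*, *Rel* and *Papolg*), 0 passed with sgZbtb1 and sgLmo2, near the background of 4.79% and 0.0173%, and medians were -0.13 and -0.04. With sgCbfa2t3, 1 of the 8 passed, beside 0.537% of all genes: *Rel*, which encodes an NF-κB subunit, fell from 39.4 ± 1.09 to 17.9 ± 1.15 TPM (SD, n = 3 each; log2 change -1.10, limma adjusted p = 0.00404). Of 10 tested neighbours of *Bcl11b* (*Setd3*, *Ccnk*, *Ccdc85c*, *Evl*, Gm34220, *Yy1*, *Slc25a29*, *Slc25a47*, *Wars* and *Wdr25*), 1 fell with sgZbtb1, close to the 4.79% of all genes called. That was *Evl*, which encodes an actin regulator of the Ena/VASP family and holds a Zbtb1 peak in its first intron, and it went from 28.0 ± 9.68 to 12.2 ± 0.815 TPM (SD, n = 3 each; log2 change -1.07, limma adjusted p = 0.0101). *Yy1*, to which HOMER assigned 3 Zbtb1 peaks, was at 260 ± 24.9 and 296 ± 6.56 TPM.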

How the data were processed

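QuantSeq libraries (3 for each of 5 sgRNA conditions, described as biological replicates) and ChIP-seq (2 replicates each for Zbtb1 and Cbfa2t3, with input) were assigned to groups by their labels. Per the submitters' notes, fastp and STAR were used on QuantSeq reads and mm10 was the genome. The authors deposited CPM values, 1 row per Ensembl gene, which they call TPM. The counting program and its strand setting are not given in the sources used here. The values gave back whole reads in 100% of cases (tolerance 0.1 read), 1705416 to 2095447 per library, and 1 row without a gene was left out. Bowtie 1.1.1 is named for ChIP-seq mapping, and the authors deposited 1 list per factor of HOMER peaks found in both replicates with a peak score, a normalized tag count. The start of *Bcl11a* used by HOMER equalled that of RefSeq on GRCm38 (24080695), which lies 2639 bp inside the GENCODE vM21 gene from which distances are given here. Other columns of the table hold the authors' means and comparisons and were not used.

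Genes with a mean above 1 TPM (11554) were tested with limma 3.58.1 (R 4.3.3, eBayes with a trend) on log2(TPM + 1) in 1 fit of 15 libraries, with Benjamini-Hochberg adjustment over all of them and a threshold of 0.05. The script was tested on simulated data. A log2 change on this scale understates changes of low genes. Ratios were tested by exact permutation over libraries, and conditions by permutation of F. Alternatives were another pseudocount, other filters and scaling, 6 libraries alone, a replicate block, another comparison group, each library left out, edgeR 4.0.16 and DESeq2 1.42.0 on recovered reads, and, added after seeing the data, leaving out all libraries numbered 2. Peaks counted if their centre was within 1 Mb of the gene body. The sequence and position of 1 counted peak are not reported here. Named genes were the members, the targeted genes, members of the lists that passed with up to 3 examples each, the 5 genes most correlated with each member, and neighbours within 1 Mb above 1 TPM. The members and lists were chosen with earlier results of these data known.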

Additional observations from a re-analysis of the deposited data

How the results depend on the processing

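The log2 change of *Bcl11b* with sgZbtb1 kept its direction and its side of the threshold in 16 of 16 alternatives, and of 275 alternative values in all, 247 did so or, for counts, stayed within 1.5 times. Ratio comparisons of at most 3 libraries against the control libraries cannot give an exact p under 0.1. Their side of the threshold was therefore fixed in advance. For *Bcl11a* with sgZbtb1 (-0.82), leaving out 1 library gave -1.02 to -0.63, and it did not pass when all genes above 0 were tested (-0.82, limma adjusted p = 0.0667), without the 5 libraries numbered 2 (-0.83, 0.158) or against the 9 other gene-targeting libraries (-0.10). Against those 9, *Bcl11a* turned to 0.43 with sgCbfa2t2 and 0.089 with sgCbfa2t3, *Bcl11b* to 0.12 with sgCbfa2t2, and *Bcl11b* with sgLmo2 (1.38) and the ratio with sgLmo2 (-1.79) passed. Leaving out 1 library moved the ratio difference of sgCbfa2t2 from -0.19 to 0.72 and that of sgCbfa2t3 from -0.20 to 0.49, F of *Bcl11b* from 4.43 to 10.7, F of the ratio from 2.67 to 5.52, and the number of called *Bcl11b* comparisons between sgRNAs from 1 to 2. The correlation of the members changed sign on deviations from condition means (-0.278) and without the 3 sgZbtb1 libraries (-0.14). With a score of at least 30 or a 500 kb window, Zbtb1 peaks near *Bcl11a* numbered 2 and 2, Zbtb1 peaks near *Bcl11b* 4 and 4, and Cbfa2t3 peaks near *Bcl11b* 3 and 2, since both settings take in fewer peaks. DESeq2 gave no adjusted p for the members with sgCbfa2t2 and sgCbfa2t3. Apart from that construction, the cause of each change was not tested. *Bcl11b* had 9 to 52 reads per library.

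The replicate numbers are shared between conditions, and nothing says what a number stands for. Over 30 pairs of same-numbered libraries the mean correlation of deviations was 0.0279 (-0.0072 to 0.0656). None was over 0.1, and the numbers were not taken as pairs. Over 60 pairs with different numbers the mean was -0.0139 (-0.0608 to 0.032). The means of both kinds are linked, since deviations were taken within conditions. Whether same-numbered libraries share an effect was not tested. With the replicate block, *Bcl11a* with sgLmo2 passed (-1.05, limma adjusted p = 0.0176), and 2 *Bcl11b* comparisons between sgRNAs passed in place of 1. In the blocked permutation of F, adjusted p was 0.00133 for both levels and the ratio. No other call of the members or their ratio against sgControl changed. Over all genes, the number called against sgControl went from 2 to 14 with sgLmo2 and from 554 to 709 with sgZbtb1. It went from 17 to 36 with sgCbfa2t2 and from 62 to 93 with sgCbfa2t3. The gene lists were not read again with the block.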

Other observations

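Library 2 had the highest ratio of *Bcl11a* to *Bcl11b* in 5 of 5 conditions, the lowest *Bcl11b* in 4 of 5 and the highest *Bcl11a* in 3 of 5. This was noticed after the values were seen. In a limma fit with a term for number 2, *Bcl11b* was lower in the libraries numbered 2 by -0.72 on the log2 scale (adjusted p = 0.584 over 11554 genes, unadjusted p = 0.00222), and *Bcl11a* was higher by 0.38 (adjusted p = 0.849, unadjusted p = 0.0138). With limma, 0 of 11554 genes passed the adjustment for this term and 637 had an unadjusted p under 0.05. What the number stands for is not given in the sources used here, and what sets library 2 apart for this pair was not tested.

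Among all 15 libraries, the 2 with the lowest *Bcl11b* outside sgZbtb1 were library 2 of sgCbfa2t3 (5.71 TPM, 10 reads) and library 2 of sgCbfa2t2 (6.20 TPM, 13 reads). Their *Bcl11a* levels, 28.5 and 34.4 TPM, were between those of the other libraries of their conditions.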
